A study of Tursiops truncatus with 76 samples.

Results

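Expression of 7 genes of actin branching, capping and contraction was followed through the whole-blood transcriptomes of wild common bottlenose dolphins (Tursiops truncatus). They were ACTR2, ACTR3 and ARPC3 of the Arp2/3 complex, CAPZA1 of capping protein, the myosin light chain MYL12B, and the alpha-actinins ACTN1 and ACTN4. A locus was taken as a member when the study's gene tables paired its coordinates with 1 of these 7 symbols, which gave 7 loci of the 24094 in the table. The series held 76 blood samples from 71 free-ranging dolphins, caught for health assessments and released. BAR was Barataria Bay, Louisiana, in the area oiled by the Deepwater Horizon spill, with 60 samples of 55 animals (12 samples each in June 2013, June 2014, June 2017, September 2017 and July 2018, and 40 from females and 20 from males). SAR was Sarasota Bay, Florida, the reference population, with 16 samples of 16 animals (8 in May 2014 and 8 in May 2016, and 8 of each sex). The sites were never sampled in the same month, so site and season cannot be told apart. Birth cohort, pregnancy and health findings were read from the study's table of animals by field ID and collection date. In BAR, 46 samples came from dolphins alive at the spill (pre-spill), 9 from dolphins born after it (post-spill) and 5 from dolphins of undetermined cohort. Dolphins born after the spill were also the younger ones at any one date, so cohort and age cannot be told apart. The pregnancy comparison held 21 samples of pregnant females (19 animals) and 20 of non-pregnant females from both sites. No treatment was part of the design, and the mix of cells in their blood was not controlled by the design.

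Actin filaments give white blood cells and platelets their shape and drive crawling, phagocytosis and spreading. The Arp2/3 complex starts a new filament as a branch on an existing one. ACTR2 and ACTR3 encode the actin-related subunits that form the base of the branch, and ARPC3 encodes a smaller subunit. Capping protein, a dimer of an alpha subunit such as CAPZA1 with the beta subunit CAPZB, closes the growing end of a filament. MYL12B encodes a regulatory light chain of non-muscle myosin II, whose phosphorylation turns on contraction together with heavy chains such as MYH9. Alpha-actinins cross-link filaments into bundles. In humans ACTN1 is the gene of an inherited low platelet count with large platelets, and ACTN4 is widely expressed outside muscle.

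The loci lay on scaffolds of the Tur_tru v1 assembly that the files use. Within the Arp2/3 complex, ACTR2 was at NW_017843712.1:9333768-9368230, ACTR3 at NW_017842971.1:13249073-13308368 and ARPC3 at NW_017844293.1:2418271-2467443. CAPZA1 was at NW_017844458.1:11256448-11302188 and MYL12B at NW_017844510.1:1445922-1462255. The alpha-actinins were at NW_017842414.1:29011546-29081070 (ACTN1) and NW_017843553.1:779981-800179 (ACTN4). Each span is a whole gene locus, exons and introns together. The ARPC3 span held 3 unnamed loci with medians of 15.7, 23.1 and 79.9 FPKM, and how the quantification shared fragments among these overlapping loci is unknown. Their scaled levels did not track ARPC3 over the 76 samples (r = -0.011, -0.123 and 0.057, a description). The next locus to MYL12B, 5476 bases away and carrying the symbol MYL9, had a median of 763.7 FPKM, and fragments of closely similar light-chain genes may have been assigned to either.

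All 7 loci were expressed in all 76 samples. Levels are given as FPKM, the fragments mapped to a gene corrected for transcript length and for library size, so they can be compared between genes. ACTR3 was the highest member, with 119.1, 240.6 and 362.9 FPKM as the lowest, median and highest sample. ARPC3 had a median of 191.8 FPKM (84.97 to 342.5) and ACTR2 one of 175.6 FPKM (74.46 to 272.5). The order of these Arp2/3 subunits was not fixed, since ACTR3 exceeded ARPC3 in 68 of 76 samples but ARPC3 exceeded ACTR2 in only 48. CAPZA1 had a median of 134.1 FPKM (62.64 to 275.7) and ACTN1 one of 129.5 FPKM (57.87 to 261.2), and CAPZA1 was the higher in 48 of 76 samples. MYL12B had a median of 58.03 FPKM (30.73 to 128.6), below ACTN1 in every sample. ACTN4 was the lowest in every sample, with a median of 11.65 FPKM (4.272 to 29.92). The other Arp2/3 subunits with a symbol ranged from a median of 64.53 FPKM (ARPC4) to 1098 FPKM (ARPC1B).

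Of the 3 Arp2/3 subunits, ACTR3 was among the steadiest loci in blood both as deposited and scaled, and ACTR2 only scaled. After median-ratio scaling, which divides each library by its median ratio to the average library, the SD of log2(FPKM + 1) over 76 samples was 0.22 for ACTR3 and 0.26 for ACTR2. These were at the 2.9th and 7.6th percentile of the 11485 expressed loci (loci with a mean of at least 1 FPKM and above 0 in at least 50% of samples), whose median SD was 0.42. The SD was 0.34 for CAPZA1, 0.36 for ACTN1, 0.37 for ARPC3, 0.38 for MYL12B and 0.41 for ACTN4, near the 48.6th percentile for the last. As deposited, the SD of ACTR3 was at the 4.9th percentile and that of ACTR2 at the 25.9th. The mean FPKM of these genes was at the 95.9th and 94.5th percentile, and their SD was not compared with loci of like level.

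**Figure D1:**
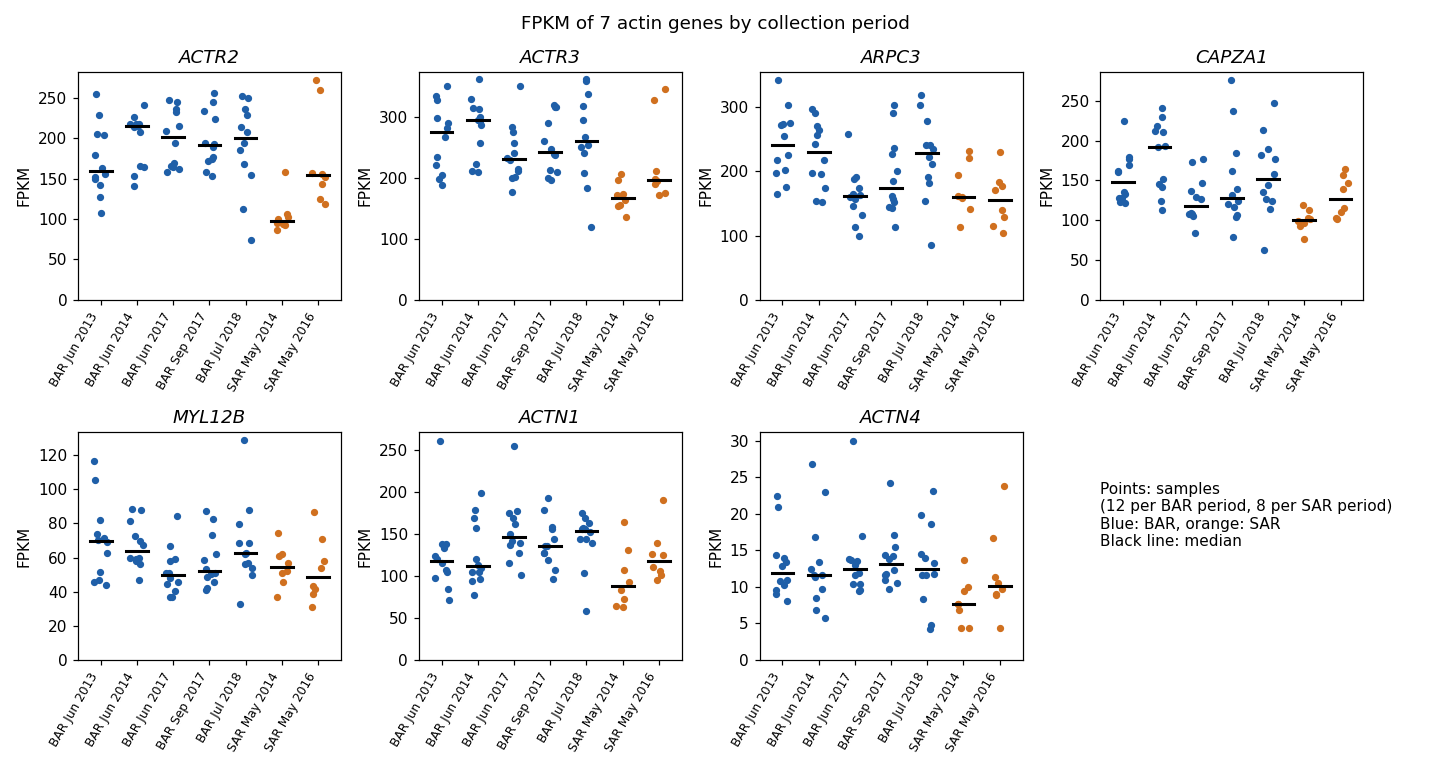
FPKM of each gene (vertical axes start at 0) in every sample by collection period, 12 samples in each BAR period (blue) and 8 in each SAR period (orange), with black lines at the medians. ACTR2 in SAR had a median of 97.44 FPKM in May 2014 and 154.5 in May 2016, and ARPC3 in BAR had medians of 241.2 FPKM in June 2013, 162.0 in June 2017 and 229.2 in July 2018.

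The depth of the libraries, judged by the step size of low FPKM values, lay between 0.526 and 1.772 times that of the middle library. Summed FPKM ran from 425816 in 1 BAR library of July 2018 to 1219802, and the next lowest was 718991. The scale of the libraries differed by site. The median expressed locus was 0.39 higher in BAR on the log2 scale as deposited, 0.67 in 2014 alone, and 0.01 after median-ratio scaling. Differences are therefore given both as deposited and scaled. Red cell marker genes went the other way. The summed level of 13 of them had a median of 32770 FPKM in BAR (7914 to 64950) and 46430 FPKM in SAR (25480 to 71220). As deposited all 13 differences were negative, and 11 of 13 passed as lower in BAR (adjusted p of at most 0.05, limma), beside 2.54% of all loci. Scaled, 13 of 13 passed as lower, beside 5.69% of all loci. Hemoglobin transcripts had been masked. Markers of platelets (12 loci), phagocytes (20), red cells (13), T and cytotoxic cells (4) and B cells (4) were all detected. In whole blood, fewer cells of a type and less RNA per cell cannot be told apart.

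The site comparison asked whether blood of the BAR population differed from that of the reference population. As deposited, 6 of the 7 genes were higher in BAR, but 73.0% of all expressed loci passed the same test (70.4% higher and 2.54% lower), so a count of 6 is near the background. Their median difference was 0.37 on the log2 scale beside 0.39 for all loci. After scaling none of the 7 passed (1 member, MYL12B, had an unadjusted p under 0.05), beside 7.68% of all loci (1.99% higher and 5.69% lower), and the differences lay between -0.24 and 0.07. The test was limma on log2(FPKM + 1) with Benjamini-Hochberg adjustment over all loci and a threshold of 0.05.

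Among the branching genes, ACTR2 had 74.46, 194.0 and 256.0 FPKM as the lowest, median and highest sample in BAR and 86.07, 121.6 and 272.5 in SAR. The ranges overlapped, and 56 of 60 BAR samples were above the SAR mean as deposited and 36 of 60 scaled. No share over all loci is set beside such counts, here or for the next genes. The log2 difference was 0.52 ± 0.11 (SE, adjusted p = 8.42e-05) as deposited and 0.07 ± 0.07 (adjusted p = 0.669) scaled. ACTR3 had 119.1, 258.0 and 362.9 FPKM in BAR and 135.9, 183.2 and 346.5 in SAR. As deposited 56 of 60 BAR samples exceeded the SAR mean, with overlapping ranges, and scaled 27 of 60 did. The difference was 0.41 ± 0.10 (adjusted p = 0.000247) as deposited and -0.04 ± 0.07 (adjusted p = 0.791) scaled. ARPC3 had 84.97, 199.5 and 342.5 FPKM in BAR and 104.5, 160.4 and 232.6 in SAR. Here 46 of 60 BAR samples were above the SAR mean as deposited and 22 of 60 scaled. The difference was 0.32 ± 0.12 (adjusted p = 0.0137) as deposited and -0.13 ± 0.10 (adjusted p = 0.537) scaled.

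The capping subunit CAPZA1 had 62.64, 140.1 and 275.7 FPKM in BAR and 76.84, 106.6 and 164.7 in SAR. As deposited its SAR samples sat in the lower part of the BAR range, with 3 of 16 above the BAR mean, and scaled 10 of 16 were above it. The difference was 0.37 ± 0.11 (adjusted p = 0.00362) as deposited and -0.08 ± 0.10 (adjusted p = 0.713) scaled. MYL12B, the light chain, was the member that did not pass as deposited, with medians of 59.21 FPKM in BAR (32.81 to 128.6) and 52.87 FPKM in SAR (30.73 to 86.66) and a difference of 0.21 ± 0.11 (adjusted p = 0.0901). Its scaled difference was the most negative of the 7, at -0.24 ± 0.10 (adjusted p = 0.161). Of the cross-linkers, ACTN1 had medians of 137.3 FPKM in BAR (57.87 to 261.2) and 106.6 FPKM in SAR (63.2 to 190.9), a difference of 0.32 ± 0.12 (adjusted p = 0.0121) as deposited and -0.13 ± 0.10 (adjusted p = 0.506) scaled. ACTN4 had medians of 12.09 FPKM in BAR (4.272 to 29.92) and 9.252 FPKM in SAR (4.33 to 23.86), a difference of 0.44 ± 0.14 (adjusted p = 0.00683) as deposited and 0.03 ± 0.12 (adjusted p = 0.935) scaled.

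Within 2014, the year both sites shared, 5 of the 7 passed as deposited, beside 72.6% of all loci. The largest were ACTR2 at 0.93 ± 0.13 (adjusted p = 1.18e-05) and CAPZA1 at 0.81 ± 0.15 (adjusted p = 0.000108), and MYL12B (adjusted p = 0.0725) and ACTN1 (adjusted p = 0.0742) missed the threshold. With 2014 alone and scaling together, a fit added after the values were seen, MYL12B was lower in BAR, at -0.49 ± 0.12 (adjusted p = 0.00958), ARPC3 was at -0.40 ± 0.13 (adjusted p = 0.0609), and no other member passed, beside 10.8% of all loci. ACTR3 was at -0.05 ± 0.11 (adjusted p = 0.796) in that fit. No site-by-sex interaction passed for any member, beside 0.0% of the 11485 loci, of which 336 and none of the members had an unadjusted p under 0.05.

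**Figure D2:**
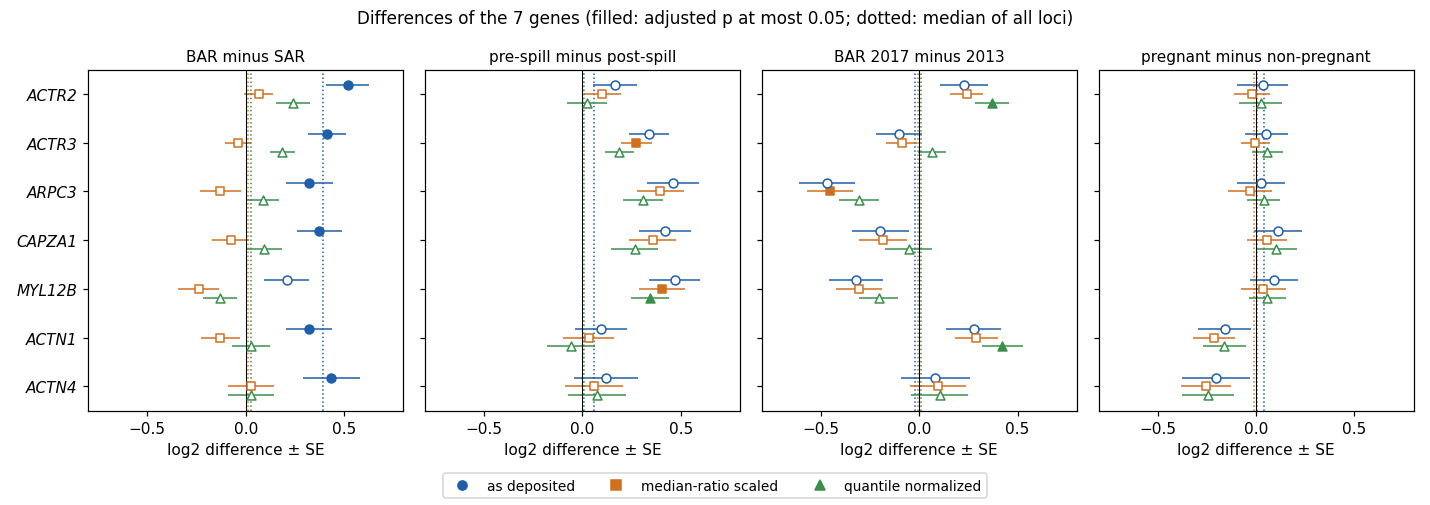
Log2 difference with its SE (horizontal axis) of each gene in 4 comparisons, as deposited (circles), median-ratio scaled (squares) and quantile normalized (triangles). Filled symbols have an adjusted p of at most 0.05 and dotted lines mark the median of all expressed loci. In the site panel the filled circles sit around the dotted line at 0.39, and in the cohort panel ACTR3, ARPC3, CAPZA1 and MYL12B sit right of the line.

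Other genes of the actin pathway were counted in the same way. Symbols were known only for 3144 loci, those that the study's tables of co-expressed or differing genes hold, and 52 of the 101 listed pathway genes were among them. Counts among these loci are therefore not independent of that choice. Of the 48 pathway loci other than the members, 42 were higher in BAR as deposited and none was lower, with a median difference of 0.40, beside 70.4% higher and a median of 0.39 for all loci. Scaled, none was higher and 1 was lower, beside 1.99% and 5.69% of all loci, and the median was -0.04. That locus was ANXA1, the gene of the phospholipid-binding protein annexin A1 that is abundant in neutrophils, at -0.39 (adjusted p = 0.0132). All 5 other Arp2/3 subunits were higher as deposited (0.31 to 0.55) and none passed scaled (-0.15 to 0.10). After quantile normalization ARPC5 alone of these 5 passed, as higher in BAR (0.33, adjusted p = 0.000412). Pathway loci of the other lists passed as higher too with quantile normalization, unlike with median-ratio scaling. They were RHOA (0.32, adjusted p = 0.000798), CDC42, the MYL9 locus next to MYL12B, TMSB10 (0.41, adjusted p = 0.0115), PFN1, LCP1, TAGLN2, CNN2 and CAPZB. The adjusted p was highest for CAPZB (0.0467) and PFN1 (0.0448). None passed as lower, beside 3.13% of all loci higher and 4.07% lower with that normalization.

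The cohort comparison set BAR dolphins alive at the spill against those born after it. For ACTR3, ARPC3, CAPZA1 and MYL12B, none of the 9 post-spill samples was above the pre-spill mean as deposited. Scaled, 1 was above it for ACTR3 and for ARPC3. No share of all loci with such a separation is set beside these counts, here or for the single genes below. As deposited none of the 7 passed the threshold, beside 0.76% of all loci (0.604% higher and 0.155% lower in the pre-spill dolphins), although these 4 had an unadjusted p under 0.05, as did 2017 of the 11585 loci. After scaling ACTR3 and MYL12B passed as lower in the post-spill dolphins, beside 2.78% of all loci (1.31% higher and 1.47% lower in the pre-spill dolphins). After quantile normalization MYL12B passed (0.34 ± 0.10, adjusted p = 0.041) and ACTR3 did not (0.19 ± 0.07, adjusted p = 0.126). The remaining members ACTR2, ACTN1 and ACTN4 differed by 0.03 to 0.10 scaled.

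ACTR3 had 184.3, 283.6 and 362.9 FPKM as the lowest, median and highest of the 46 pre-spill samples and 177.7, 211.3 and 257.8 FPKM in the 9 post-spill samples. The ranges overlapped, and 36 of 46 pre-spill samples were above the post-spill mean. The log2 difference, pre-spill minus post-spill, was 0.34 ± 0.10 (adjusted p = 0.0761) as deposited and 0.27 ± 0.08 (adjusted p = 0.041) scaled. MYL12B had 41.11, 62.72 and 128.6 FPKM in pre-spill and 36.99, 45.85 and 59.14 FPKM in post-spill samples. All 9 post-spill samples were below the pre-spill mean, and 42 of 46 pre-spill samples were above the post-spill mean. The difference was 0.47 ± 0.13 (adjusted p = 0.0557) as deposited and 0.40 ± 0.12 (adjusted p = 0.0394) scaled. Without post-spill replicate 5 MYL12B also passed as deposited (0.51, adjusted p = 0.0373), and without post-spill replicate 8 its adjusted p was 0.181 and no locus passed.

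ARPC3 had medians of 224.6 FPKM in pre-spill (112.7 to 342.5) and 162.2 FPKM in post-spill samples (99.66 to 202.0). CAPZA1 had medians of 159.1 FPKM (78.39 to 275.7) and 108.0 FPKM (104.4 to 152.3). The post-spill samples of both genes sat in the lower part of the pre-spill range. The differences were 0.46 ± 0.13 (adjusted p = 0.0662) and 0.42 ± 0.13 (adjusted p = 0.0907) as deposited, and 0.40 ± 0.12 (adjusted p = 0.0548) and 0.36 ± 0.12 (adjusted p = 0.0816) scaled. ACTN1 overlapped almost wholly, with medians of 136.6 FPKM (71.76 to 261.2) and 127.0 FPKM (84.81 to 174.5), a difference of 0.09 ± 0.13 (adjusted p = 0.767). ACTR2 differed by 0.17 ± 0.11 (adjusted p = 0.464) and ACTN4 by 0.12 ± 0.16 (adjusted p = 0.761).

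**Figure D3:**
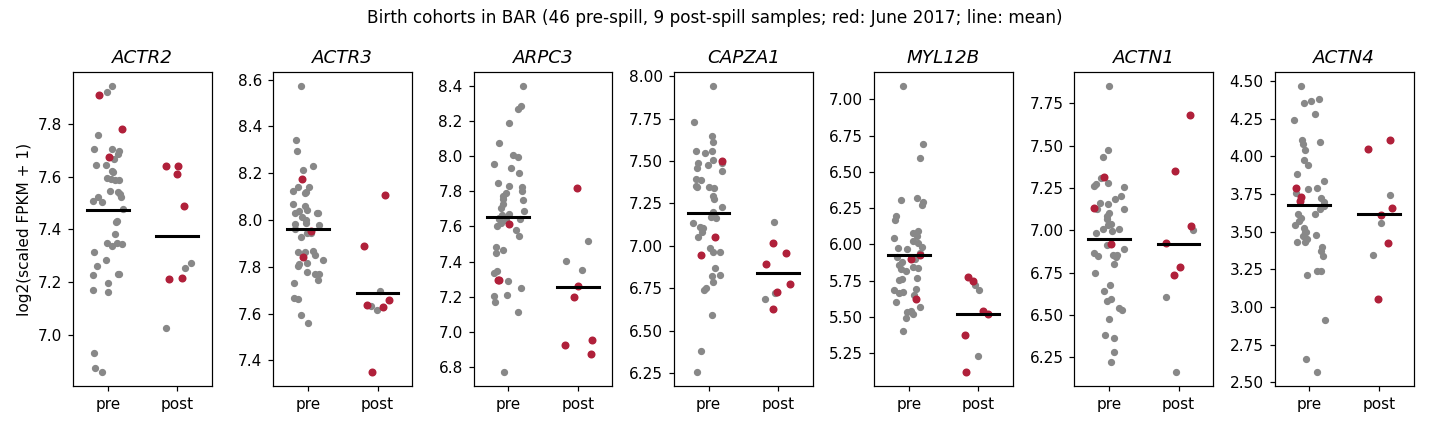
Median-ratio scaled log2(FPKM + 1) of each gene in the 46 pre-spill and 9 post-spill BAR samples, with lines at the means and the 9 samples of June 2017 in red (vertical axes do not start at 0). Of the 9 post-spill points, none is above the pre-spill mean for CAPZA1 and MYL12B and 1 is above it for ACTR3 and ARPC3, while 4 are above it for ACTN1. These counts are given without a share over all loci.

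Collection period and cohort were tied together. The post-spill samples were 6 in June 2017 and 1 each in June 2013, June 2014 and September 2017, against 3, 11, 11 and 11 pre-spill samples in these periods and 10 in July 2018. With period and sex in the model none of the 7 passed (MYL12B 0.34 ± 0.16, adjusted p = 0.339, and ACTR3 0.30 ± 0.13, adjusted p = 0.302), beside 0.0345% of all loci. With scaling added to that model, a fit made after the values were seen, again none passed (ACTR3 0.31 ± 0.10, adjusted p = 0.093, and MYL12B 0.35 ± 0.15, adjusted p = 0.194), beside 0.958% of all loci. Within June 2017 alone, MYL12B was at 51.21, 57.81 and 66.92 FPKM in the 3 pre-spill samples and at 36.99, 40.47, 44.25, 45.85, 48.1 and 59.14 FPKM in the 6 post-spill samples. ACTR3 was at 242.0, 276.6 and 283.9 FPKM in the former and at 177.7, 200.6, 201.6, 211.3, 230.2 and 257.8 FPKM in the latter. In that month, as deposited, 5 of 6 post-spill samples lay below the lowest pre-spill sample for ACTR2, ACTR3, ARPC3, CAPZA1 and MYL12B, 4 for ACTN4 and 2 for ACTN1. These counts change with scaling. Scaled log2 levels of ACTR3 reached 7.888 and 8.107 in post-spill samples, above the lowest pre-spill level of 7.843. For ACTR2 the highest post-spill level, 7.641, was below the lowest pre-spill level, 7.676. These June 2017 values were chosen after the cohort result was seen and were not tested. Sex was not balanced in them, with mostly males among the pre-spill and mostly females among the post-spill samples. No share of all loci with such a separation is set beside these counts.

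Levels of several cell type markers differed between the cohorts too. Summed B cell markers (CD22, CD79B, MS4A1 and CR2) had a median of 725.5 FPKM in post-spill samples (218.4 to 991.3) and 287.4 FPKM in pre-spill samples (50.29 to 850.0), and all 4 were higher in post-spill samples scaled. Summed phagocyte markers had a median of 15110 FPKM in post-spill (12060 to 17170) and 21980 FPKM in pre-spill samples (12960 to 34600), with 19 of 20 differences positive (pre-spill minus post-spill) and only the lysozyme gene LYZ past the threshold (0.65, adjusted p = 0.0462). Summed platelet markers had medians of 4285 FPKM (2715 to 5590) and 5385 FPKM (2395 to 13520). That sum rests mostly on PF4, and 4 of the 12 platelet differences were positive. Of the 12 only RGS18 was past the threshold as deposited (0.58, adjusted p = 0.0499), and it was not scaled (adjusted p = 0.0507). The mean scaled log2 level of platelet markers was 5.67 in post-spill and 5.61 in pre-spill samples. Red cell markers had medians of 39000 FPKM (24320 to 60690) and 27470 FPKM (7914 to 64950). T and cytotoxic cell markers had medians of 176.1 FPKM (108.4 to 253.2) and 239.4 FPKM (131.5 to 575.6). Their part in the differences of the 7 genes was not tested.

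Among the 48 other pathway loci, 36 had a positive difference as deposited and 1 of them passed the threshold, ANXA1 at 0.55 ± 0.15 (adjusted p = 0.0485). The differences of the 5 other Arp2/3 subunits were 0.25 to 0.43, and none passed. Scaled, ANXA1 was higher in pre-spill dolphins (0.49, adjusted p = 0.0397) and the spectrin gene SPTAN1, whose product ties actin to membranes, was lower (-0.43, adjusted p = 0.0273). The median of the 48 loci was 0.19 as deposited beside 0.06 for all loci, and 0.13 beside 0.00 scaled. These loci have symbols only through the study's tables of co-expressed and differing genes, which include genes that differed between these cohorts. Their signs and medians are therefore not independent of that choice. No share of positive differences over all loci is set beside the 36.

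**Figure D4:**
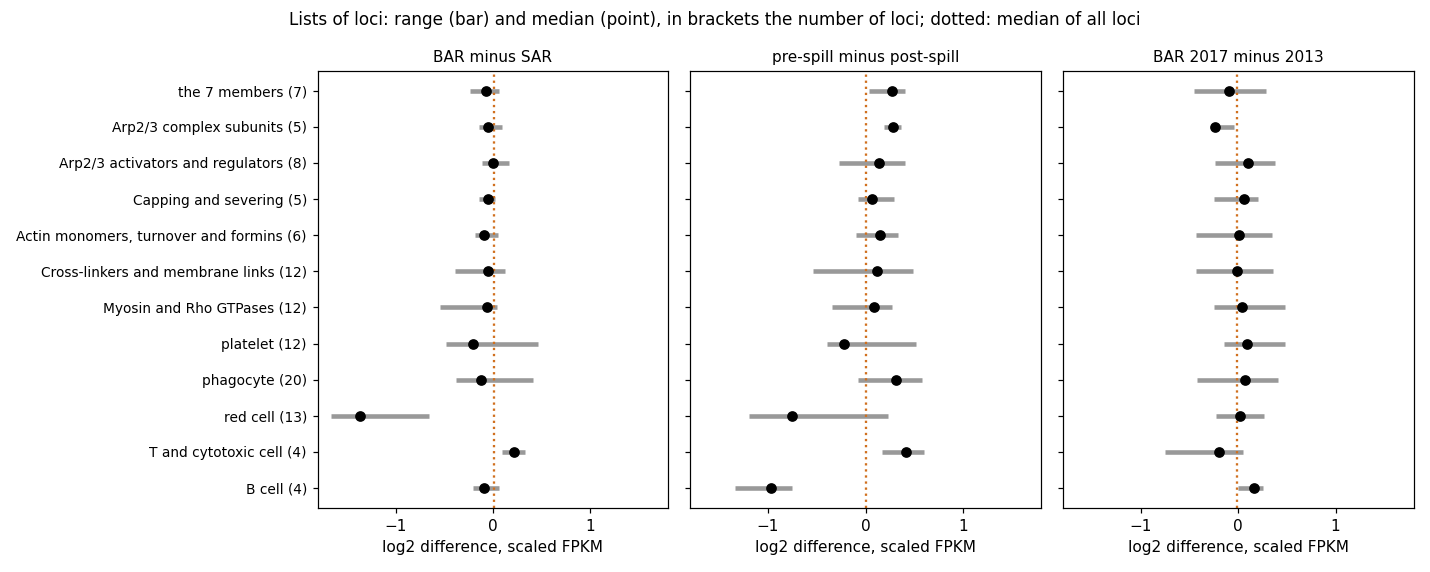
Median-ratio scaled log2 differences of the 7 genes, the 6 pathway lists without them and the 5 marker lists, with the range of each list as a bar, its median as a point and the median of all loci dotted. Red cell markers lie furthest to the left between sites (median -1.37), and B cell markers furthest to the left between cohorts (median -0.97), beside 0.27 for the 7 genes between cohorts. Listed loci have symbols only through the study's tables of co-expressed and differing genes.

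The comparison of collection years within BAR asked how expression moved with time after the spill. As deposited none of the 7 passed in any of the 6 pairs of years. The background was 1.16% of all loci for 2017 against 2014 and 0.0% in the other 5 pairs, where 590 to 1669 loci had an unadjusted p under 0.05. Without the library of lowest summed FPKM the background was 2.72% for 2017 against 2014 and 0.432% for 2017 against 2013, and again no member passed. ARPC3 had an unadjusted p under 0.05 in 3 of the pairs, MYL12B in 2 and CAPZA1 in 1. ARPC3 had 165.2, 241.2 and 342.5 FPKM as the lowest, median and highest of 12 samples in 2013, 151.6, 230.5 and 297.4 in 2014, 99.66, 162.9 and 303.2 over 24 samples in 2017, and 84.97, 229.2 and 319.2 in 2018. The median was lowest in 2017 and near the earlier level in 2018, with overlapping ranges in all years. For 2017 minus 2013 the log2 difference was -0.47 ± 0.14 (adjusted p = 0.13) as deposited and -0.45 ± 0.11 (adjusted p = 0.0145) scaled, beside 5.08% of all loci (2.43% higher and 2.64% lower). For 2018 minus 2017 it was 0.36 ± 0.11 (adjusted p = 0.279) scaled. Summed phagocyte markers had medians of 22050 FPKM in 2013 and 15710 FPKM in 2017, although 12 of the 20 differences (2017 minus 2013) were positive, and summed B cell markers medians of 293.3 and 363.1 FPKM. The part of cell mixture in the differences between years was not tested. Years and birth cohort were tied as well. The post-spill samples were 6 in June 2017, 1 in September 2017, 1 each in 2013 and 2014, and 0 in 2018. The part of cohort or age in the differences between years was not tested.

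ACTR2, which makes the base of the branch, had a difference of the opposite sign for 2017 minus 2013. It had medians of 159.1 FPKM in 2013 (107.1 to 254.5), 215.2 in 2014 (140.7 to 241.1), 193.4 in 2017 (153.2 to 256.0) and 200.9 in 2018 (74.46 to 252.9). Its difference for that pair was 0.23 ± 0.12 (adjusted p = 0.411) as deposited, 0.24 ± 0.08 (adjusted p = 0.0781) scaled and 0.37 ± 0.09 (adjusted p = 0.0109) after quantile normalization. ACTN1 had medians of 117.7, 111.3, 140.3 and 153.8 FPKM in the 4 years, and for 2017 minus 2013 a difference of 0.28 ± 0.14 (adjusted p = 0.371) as deposited, 0.29 ± 0.11 (adjusted p = 0.111) scaled and 0.42 ± 0.10 (adjusted p = 0.0136) after quantile normalization. For 2017 minus 2014, ACTN1 was at 0.38 ± 0.11 scaled (adjusted p = 0.0942, beside 0.19% of all loci). With quantile normalization 4.81% of all loci passed for 2017 minus 2013, and ARPC3, at -0.31 ± 0.10, did not (adjusted p = 0.0592). MYL12B had medians of 69.82, 63.55, 51.01 and 62.5 FPKM, with -0.31 ± 0.12 (adjusted p = 0.106) for 2017 minus 2013 scaled. CAPZA1 had medians of 148.0, 192.4, 125.1 and 151.1 FPKM, with -0.42 ± 0.15 (adjusted p = 0.114) for 2017 minus 2014 as deposited. ACTR3 and ACTN4 differed by at most 0.20 as deposited in any pair. Other pathway loci that passed scaled for 2017 minus 2013 were MYH9 (0.48, adjusted p = 0.0139) and the formin gene DIAPH1 (0.35, adjusted p = 0.0105), which were higher, and the monomer-binding thymosin gene TMSB10 (-0.43, adjusted p = 0.0401) and ANXA1 (-0.43, adjusted p = 0.0437), which were lower.

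Years and season overlap only in part, since 2017 holds June and September. From June to September 2017 no member passed as deposited or scaled, beside 0.0% of 11550 loci, of which 905 and none of the members had an unadjusted p under 0.05 as deposited, and the scaled differences were between -0.10 (ACTN1) and 0.25 (ARPC3). In SAR, where 8 dolphins were sampled in each of 2 years, ACTR2 had 86.07, 97.44 and 158.0 FPKM as the lowest, median and highest sample in 2014 and 118.9, 154.5 and 272.5 in 2016. In 2014, 7 of its 8 samples were below the lowest sample of 2016. This difference was 0.69 ± 0.19 (adjusted p = 0.0231) as deposited, beside 17.2% of all loci, and 0.29 ± 0.15 (adjusted p = 0.251) scaled. ARPC3 in SAR had medians of 160.4 FPKM in 2014 (113.9 to 232.6) and 155.5 FPKM in 2016 (104.5 to 230.1), and scaled its difference was -0.55 ± 0.15 (adjusted p = 0.0512), beside 3.54% of all loci. Red cell markers in SAR had a median sum of 53290 FPKM in 2014 and 37930 FPKM in 2016 (mean scaled log2 level 8.45 ± 0.38 and 7.59 ± 0.32, SD), and the mean scaled level of platelet markers was 6.00 and 5.60. Their part in the differences was not tested. The SAR comparison of years was added after the values were seen.

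The ratio of 2 genes within a library does not depend on how libraries are scaled. The ratio of ACTR2 to ACTR3, the pair at the base of the branch, had a mean log2 value of -0.46 ± 0.20 (SD) in BAR and -0.56 ± 0.25 in SAR. The 18 ratio tests, 6 ratios each for site, cohort and pregnancy, used two-sided permutation tests with 100000 resamples, and none passed after adjustment. The lowest adjusted p was 0.1, shared by 3 cohort ratios. These were MYL12B to its heavy chain MYH9, with -2.24 ± 0.54 (SD, n = 46) in pre-spill and -2.78 ± 0.42 (n = 9) in post-spill samples (permutation p = 0.006), CAPZA1 to CAPZB (-0.82 ± 0.34 and -1.12 ± 0.19, permutation p = 0.016) and ACTR2 to ACTR3 (-0.49 ± 0.19 and -0.32 ± 0.18, permutation p = 0.017).

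For pregnancy none of the 7 genes passed as deposited, beside 0.00865% of all loci (1 of 11558), while 690 loci and none of the members had an unadjusted p under 0.05. ACTN1 had 71.76, 137.1 and 192.9 FPKM as the lowest, median and highest of 21 pregnant samples and 63.2, 138.2 and 261.2 of 20 non-pregnant samples. The ranges overlapped, and the difference was -0.16 ± 0.14 (adjusted p = 0.891) as deposited and -0.21 ± 0.11 (adjusted p = 0.535) scaled. Of the non-pregnant samples, 14 of 20 were above the pregnant mean as deposited and 17 of 20 scaled, given without a share over all loci. ACTN4 had medians of 11.63 FPKM (4.404 to 26.86) and 13.12 FPKM (7.691 to 29.92), a difference of -0.20 ± 0.17 (adjusted p = 0.891). The 5 other members differed by 0.02 to 0.11 as deposited. Summed phagocyte markers had medians of 20850 and 19230 FPKM and platelet markers of 5697 and 5385 FPKM in pregnant and non-pregnant females. These sums rest mostly on LYZ and PF4, and most markers went the other way, with positive differences (pregnant minus non-pregnant) for 4 of 20 phagocyte and 2 of 12 platelet markers as deposited. The mean scaled log2 level was 8.10 ± 0.31 (SD) and 8.31 ± 0.34 for phagocyte markers and 5.53 ± 0.50 and 5.84 ± 0.44 for platelet markers in the same order. Their part in the differences of ACTN1 and ACTN4 was not tested. Pregnancies that failed (13) and succeeded (6) gave member differences of 0.03 (ACTN1) to 0.33 (MYL12B) with adjusted p of at least 0.706, beside 0.21 for the median of all loci. No member passed, beside 0.0% of 11576 loci, of which 634 and none of the members had an unadjusted p under 0.05.

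Health findings were compared within BAR. No member passed for inflammation (12 with and 48 without), hepatobiliary findings (9 and 51), anemia (6 and 54), altered iron (6 and 54) or lung score (19 Moderate or Severe and 38 Normal or Mild), beside 0.0% of all loci in each, and 400 to 877 loci had an unadjusted p under 0.05. The closest was MYL12B by lung score, with 32.81, 62.81 and 128.6 FPKM as the lowest, median and highest of the 19 and 36.99, 56.17 and 88.13 of the 38. The ranges overlapped widely, and the difference was 0.25 ± 0.11 (unadjusted p = 0.031, adjusted p = 0.642) as deposited and 0.31 ± 0.09 (adjusted p = 0.231) scaled. Summed phagocyte markers had medians of 22250 FPKM in the 19 and 17480 FPKM in the 38 (mean scaled log2 level 8.31 and 8.09), and the mean scaled level of B cell markers was 4.79 and 5.13. Their part in the difference of MYL12B was not tested. The difference of ARPC3 by lung score was 0.22 ± 0.12 (adjusted p = 0.677). Inflammation came with differences of 0.05 (ACTN1) to 0.29 (ACTN4), all positive, at adjusted p of at least 0.819. Scaled, ACTR2, ACTR3, ARPC3 and ACTN4 had an unadjusted p under 0.05 for inflammation, the lowest for ACTR3 (0.17 ± 0.07, adjusted p = 0.367), as did 1182 of the 11582 loci, and summed phagocyte markers had medians of 23590 FPKM with and 18020 FPKM without it. The differences for the other findings ran from -0.14 (ARPC3, hepatobiliary) and -0.23 (ACTN1, anemia) to 0.32 (ACTN4, iron).

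In BAR 5 dolphins were sampled 2 times, 1 from 2013 to 2014, 2 from 2014 to 2017 and 2 from 2017 to 2018. Within these animals ACTR3 and ACTR2 were the steadiest as deposited, with log2 changes of -0.11 to 0.30 and -0.15 to 0.34, and ACTN4 the least. Scaled, CAPZA1 had the narrowest range (-0.250 to 0.097), beside -0.117 to 0.408 for ACTR3 and -0.155 to 0.449 for ACTR2. In 1 animal ACTN4 went from 10.58 to 4.774 FPKM between September 2017 and July 2018, while MYL12B of the same animal went from 41.11 to 68.68 FPKM. No member had a change of the same sign in all 5 animals.

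Levels of the members were then set beside the marker lists over the first sample of each of the 55 BAR animals, in scaled log2 values. All 7 genes were positively related to the mean of the 20 phagocyte markers, from CAPZA1 (r = 0.38, rho = 0.45, permutation adjusted p = 0.012 and 0.002) to ACTN1 (r = 0.73, rho = 0.61, permutation adjusted p = 7e-05 and 0.00012). These were 35 relations of 7 genes with 5 lists, and no share over all expressed loci is set beside them, here or for SAR. Members and markers have symbols only through the study's tables of co-expressed and differing genes. Relations among them are therefore not independent of that choice. Without the 2 farthest animals the 7 values of r were 0.42 to 0.65, and on deviations from the period means 0.41 to 0.77. ACTR3 had r = 0.66 and rho = 0.64, and MYL12B r = 0.59 and rho = 0.51. The raw permutation p was 1e-05 for ACTR3, MYL12B and ACTN1, the smallest that 100000 resamples can give.

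For platelet markers, ACTN1 (r = 0.52, rho = 0.40, permutation adjusted p = 7e-05 and 0.0073) and ACTR2 (r = 0.48, rho = 0.46, permutation adjusted p = 0.00066 and 0.002) passed, and r was 0.40 and 0.47 without the 2 farthest animals. ACTR3 was at r = 0.31 (permutation adjusted p = 0.042) with rho = 0.27 (permutation adjusted p = 0.089) and r = 0.23 without the 2 farthest, beside r = 0.41 on deviations from the period means. ARPC3 (r = 0.10) and CAPZA1 (r = -0.01) did not pass, and a difference between genes in r was not tested. B cell markers were negatively related to ACTR2, ACTR3, ARPC3, CAPZA1, MYL12B and ACTN4, most for ACTR3 (r = -0.67, rho = -0.60, permutation adjusted p = 7e-05 and 0.00012) and MYL12B (r = -0.53, rho = -0.51, permutation adjusted p = 0.00017 and 0.00099). Without the 2 farthest animals these were -0.56 and -0.47. ACTN4 passed for r (-0.33, permutation adjusted p = 0.034) and not for rho (-0.27, permutation adjusted p = 0.089). As deposited only MYL12B of these 6 still passed with B cell markers (r = -0.32, permutation adjusted p = 0.028), and ACTR3 was at -0.27 (permutation adjusted p = 0.064), ARPC3 at -0.25 (0.082), CAPZA1 at -0.22 (0.12), ACTR2 at -0.14 (0.35) and ACTN4 at -0.11 (0.46). Scaled, T and cytotoxic cell markers passed for r but not rho with CAPZA1 (r = 0.32, rho = 0.29) and ACTN1 (r = -0.35, rho = -0.27), and red cell markers passed with none. As deposited, red cell markers passed with ACTR3 (r = -0.345), ARPC3 (-0.376), MYL12B (-0.492) and ACTN1 (-0.38), and not with ACTR2, CAPZA1 or ACTN4. T and cytotoxic cell markers then passed with ACTR3, ARPC3, CAPZA1, MYL12B and ACTN4 (r = 0.353 to 0.545), and not with ACTR2 or ACTN1.

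In the 16 SAR animals the relation with phagocyte markers was positive for all 7 (r = 0.28 to 0.72) and passed for MYL12B (r = 0.72, rho = 0.70, permutation adjusted p = 0.025 and 0.035), and for ACTN1 by rho alone (r = 0.64, rho = 0.69, permutation adjusted p = 0.072 and 0.035). MYL12B was also negatively related to B cell markers there (r = -0.77, rho = -0.74, permutation adjusted p = 0.015 and 0.035), and ACTN1 by rho alone to T and cytotoxic cell markers (r = -0.66, rho = -0.69, permutation adjusted p = 0.063 and 0.035). ACTR2 had r = -0.15 with platelet markers in SAR (permutation adjusted p = 0.74). Marker means and members share a library, and the part of cell mixture in these relations was not tested.

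**Figure D5:**
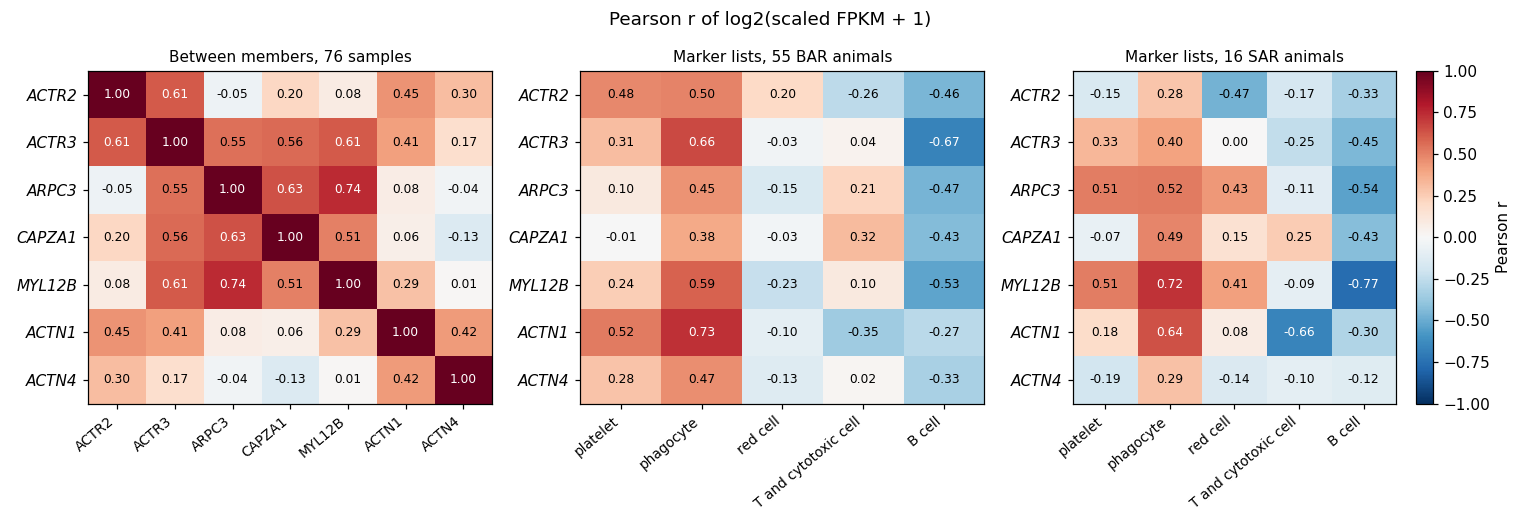
Pearson r of scaled log2(FPKM + 1), between the 7 genes over 76 samples (left), and between each gene and the mean of each marker list in 55 BAR animals (middle) and 16 SAR animals (right), with the colour scale from -1 to 1. The phagocyte column is positive in all 14 cells and the B cell column negative in all 14, given without a share over all loci.

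Among themselves the genes differed widely in r over the 76 samples, given as a description. ARPC3 went with MYL12B (r = 0.74) and CAPZA1 (r = 0.63), and ACTR2 with ACTR3 (r = 0.61), while ACTR2 and ARPC3 of the same complex were at -0.05. ACTR3 stood between the sets, with r = 0.55 to ARPC3 and 0.61 to MYL12B. ACTN1 and ACTN4 were at 0.42, and ACTN4 and CAPZA1 at -0.13. As deposited, where library scale adds to every pair, all 21 values were positive, from 0.35 to 0.87.

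The genes most alike in pattern were chosen by r over the 76 samples among 2866 named loci, whose symbols came from the study's tables of co-expressed and differing genes, so likeness among them is not independent of that choice. ARPC3 was closest to another subunit of its complex, ARPC2 (r = 0.81), then to ANXA1 (0.78) and MYL12B (0.74). CAPZA1 was also closest to ARPC2 (0.81). ACTN4 was closest to the filament cross-linker FLNA (0.78), ACTR3 to the G protein subunit gene GNAI3 (0.83), MYL12B to the glycolytic enzyme gene PGK1 (0.80), ACTR2 to the phospholipid transporter gene ATP11B (0.78) and ACTN1 to ITPRIP (0.83). The median r of each member with all candidates was between -0.02 and 0.13.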

How the data were processed

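Whole-blood RNA was preserved and extracted with PAXgene kits, and directional libraries were sequenced on an Illumina NovaSeq. The authors trimmed reads with Trimmomatic 0.33, checked them with FastQC, mapped them to Tur_tru v1 with TopHat2 2.1.1 and Bowtie2, masked hemoglobin sequences, and deposited gene-level FPKM from Cufflinks 2.2.1. These FPKM values are relative to each library's own total, so a few abundant transcripts can shift all others, and read counts per gene were not used here. Loci carry coordinates only, and symbols came from the study's gene tables, parts of which were shortened.

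Groups were the site and collection date in the labels, with cohort, pregnancy and health findings from the study's table of animals. For each comparison loci with a mean FPKM of at least 1 and above 0 in at least 50% of samples were fitted with limma 3.58.1 (lmFit, eBayes with trend) in R 4.3.3 on log2(FPKM + 1), and p was adjusted by Benjamini-Hochberg over all these loci (threshold 0.05). The fit was tested on simulated data. Log2 differences on this scale understate changes of low genes. Alternatives were a pseudocount of 0.1, no filter, median-ratio scaling, quantile normalization, leaving out samples, covariates, and animal as a block. Ratios and correlations used permutation tests in Python 3.11.15 (numpy 2.4.6, exact enumeration for the SAR ratios). Apart from 5 BAR dolphins sampled 2 times, each sample was a separate animal. The 7 members were always named, other pathway genes only if past the threshold, with up to 3 in each direction per list, and the 3 loci of highest r for each member were candidates for naming. The members and lists were chosen with earlier results of these data known. No DNA or protein sequence of the assembly was used here. The result of 1 pathway locus is not reported here.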

Additional observations from a re-analysis of the deposited data

Results flagged for a closer look

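In 49 groups of 6 to 9 samples the highest or lowest value was compared with its nearest neighbour by Dixon's test, which flags about 1 in 20 groups by chance. It picked out 4 values, each the highest of its group. ACTR2 stood at 158.0 FPKM in 1 of the 8 SAR samples of May 2014. ACTN1 stood at 190.9 FPKM in 1 of the 8 SAR samples of May 2016. Among the 6 successful pregnancies, ARPC3 stood at 291.6 FPKM and CAPZA1 at 237.5 FPKM, both in the same sample. No cause of these values was tested.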

How the results depend on the processing

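Of 826 alternative values for the log2 differences of the 7 genes, 797 stayed on the same side of the threshold (63 of them changed sign with neither value past it), 7 newly passed, 13 no longer passed and 9 changed sign. Between sites, 0 of 7 genes passed with median-ratio scaling, 0 with quantile normalization and 1 with 2014 alone and scaling, against 6 as deposited. Scaling gave ACTR3 -0.040, ARPC3 -0.13, CAPZA1 -0.076 and ACTN1 -0.13, and 2014 alone with scaling gave ACTR3 -0.054, ARPC3 -0.40, MYL12B -0.49, ACTN1 -0.38 and ACTN4 -0.094. Scaling moved the median of all loci from 0.39 to 0.01. Over all loci, 8379 passed between sites as deposited, 882 scaled and 827 with quantile normalization.

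Between cohorts, 2 genes passed with scaling and 1 with quantile normalization, against 0 as deposited, and over all loci 322, 297 and 88. Leaving out 1 post-spill sample at a time gave 0 to 1 genes and 0 to 189 loci. Without post-spill replicate 5, MYL12B passed at 0.51 (adjusted p = 0.0373), and without replicate 8 no locus did. Between years, 1 gene passed with scaling and 2 with quantile normalization, against 0 as deposited. For 2017 minus 2013 the loci passing were 588, 557 and 0, and for 2017 minus 2014 they were 22, 15 and 134, with 82 at a pseudocount of 0.1 and 34 without the filter. Without the library of lowest summed FPKM, 6 genes passed between sites and 0 between years, while 315 loci passed for 2017 minus 2014 and 50 for 2017 minus 2013. The r of ACTN1 with T and cytotoxic cell markers turned from -0.355 to 0.064 as deposited. Of the other 34 r values as deposited, 11 newly passed and 5 no longer passed.

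With the animal as a replicate block, 6 genes passed between sites, 0 between cohorts and 0 between years, with correlations of 0.425, 0.379 and 0.449 between samples of an animal, so the block changed no count of members. Over all loci the block gave 8316 between sites, 93 between cohorts, 359 for 2017 minus 2014 and 11 for 2017 minus 2013. Fits of 2014 alone with scaling, of period and sex with scaling, of SAR years, of June against September 2017 and of ratios between years were added after the data were seen. Depth is known only as a ratio between libraries, so no counting error was given for an FPKM value.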

Other observations

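Within-library ratios were also compared between years, in 18 tests chosen after the values were seen (two-sided permutation tests, exact for the 8 against 8 SAR samples, adjusted over the 18). Dolphins sampled in both 2014 and 2017 entered as separate samples and their pairing was not used. The ratio tests of site, cohort and pregnancy likewise treated repeat samples of an animal as separate. The ratio of ACTR2 to ACTR3 was higher in 2017 than in 2013 and 2014 in BAR, and higher in 2016 than in 2014 in SAR. In BAR its mean log2 value was -0.64 ± 0.16 (SD, n = 12) in 2013, -0.51 ± 0.11 (n = 12) in 2014 and -0.31 ± 0.17 (n = 24) in 2017, a rise of 0.33 from 2013 (permutation adjusted p = 0.00027) and of 0.20 from 2014 (permutation adjusted p = 0.0021). In 2018, which was not tested, it was -0.50 ± 0.15 (n = 12). In SAR it was -0.71 ± 0.23 in 2014 and -0.41 ± 0.15 in 2016 (exact permutation, adjusted p = 0.024, n = 8 each).

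The light chain MYL12B was lower relative to the heavy chain MYH9 in BAR in 2017, at -2.78 ± 0.37, than in 2013 (-1.99 ± 0.48, permutation adjusted p = 0.00027) and 2014 (-2.07 ± 0.55, permutation adjusted p = 0.00036). In 2018, which was not tested, it was -2.23 ± 0.48. In SAR the means were -1.94 ± 0.47 and -2.56 ± 0.64 (exact permutation, adjusted p = 0.094, n = 8 each). ARPC3 relative to ARPC2 was -1.14 ± 0.16 in 2013 and -1.40 ± 0.17 in 2017 in BAR (permutation adjusted p = 0.0004), and 2014 at -1.39 ± 0.23 did not differ from 2017 (permutation adjusted p = 0.91). CAPZA1 relative to CAPZB was -0.69 ± 0.32 in 2014 and -1.02 ± 0.31 in 2017 (permutation adjusted p = 0.017). In 2013 it was -0.85 ± 0.41 (permutation adjusted p = 0.26 against 2017) and in 2018 -0.87 ± 0.27, and in SAR it differed by 0.02 between years (exact permutation, adjusted p = 0.91, n = 8 each). Collection year may also stand for storage time, season and the animals caught, with their birth cohort and age, and none of these was tested.

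The ratio of ACTN1 to ARPC3 is given as a description. Its mean log2 value was -0.99 in June 2013, -0.85 in June 2014, -0.08 in June 2017, -0.43 in September 2017 and -0.61 in July 2018 in BAR, and -0.86 and -0.31 in SAR in 2014 and 2016. ACTN1 exceeded ARPC3 in 5 of 12 samples of June 2017 and in none of 12 in June 2013.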
